A study of Mus musculus with 6 samples.

Results

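Epidermal growth factor (EGF) family ligands, their ErbB receptors and the receptor inhibitor encoded by Errfi1 were described in 3T3-L1 preadipocytes kept in adipogenic medium. The list held 10 genes, the ligands Ereg, Areg, Hbegf, Tgfa, Btc and Nrg1, the receptors Egfr, Erbb2 and Erbb3, and Errfi1. It was chosen by name with the co-culture against alone values of these libraries already known, so those values are given for the members as a description and without a test. Rows for 8 of the 10 were found among the 21436 genes of the table, and Areg and Btc were not analysed here. Of the 8, Ereg, Hbegf, Nrg1, Egfr, Erbb2 and Errfi1 had a mean of at least 1 FPKM (reads corrected for gene length and library depth) over the libraries, and Tgfa and Erbb3 did not.

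The libraries came from 3T3-L1 cells, a wild-type mouse embryonic fibroblast line that can become adipocytes, kept in the bottom compartment of a Transwell, whose insert has a membrane with 0.4 µm pores. In the co-culture group (3 libraries) the insert carried mesenchymal stem cells from human umbilical cord, and in the alone group (3 libraries) it carried none. Both groups spent 72 h in the same adipogenic medium with 2 µM rosiglitazone, 1 µM dexamethasone, 0.5 mM IBMX, 10 mg/L insulin and 10% serum, so no library shows the cells without induction. The comparison asked how the human cells changed expression in the mouse cells below them. Whether replicates were separate cultures is not stated in the labels; the p-values then reflect only how these libraries vary, which may be technical.

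EGF family ligands are made as membrane proteins and released by metalloproteases of the ADAM family. Epiregulin, amphiregulin, heparin-binding EGF, TGF-alpha and betacellulin bind the EGF receptor, some of them also ErbB4, while neuregulins bind ErbB3 and ErbB4, and ErbB2 has no ligand of its own and signals as the partner of another receptor. Ligand-bound receptors signal through RAS to the kinase ERK, and ERK activity induces several genes that damp the same pathway. In preadipocytes, EGF receptor ligands are known as mitogens that can oppose terminal differentiation.

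Library totals lay between 29603755 and 38357563 reads. The fibroblast markers Vim and Col1a2, which check only the fibroblast label of the cells, had means of 1274 and 799 FPKM over the 6 libraries. Cd34, of the same list, had 10 reads in all 6 libraries. The summed level of 8 fibroblast markers was 2602 to 2706 FPKM alone and 2888 to 2922 in co-culture. Of the 7 tested, 4 were called higher and 1 lower, where 13.9% and 17.9% of all tested genes were. The 8 adipocyte markers measured of 9 summed to 271 to 291 FPKM alone and 242 to 253 in co-culture. Almost all of the sum came from Lpl and Fabp4 (means of 208 and 55.8 FPKM), while Adipoq had 1 read in all 6 libraries. Lpl and Fabp4 moved in opposite directions without overlap. With co-culture the mean of Lpl fell from 226 to 190 FPKM, whereas that of Fabp4 went up from 53.4 to 58.2. Lpl was called lower and Fabp4 was not called, so the lower sum reflected Lpl. The 7 epithelial markers measured of 10 summed to 0.0311 to 0.136 FPKM alone and 0.111 to 0.127 in co-culture (Krt19 and Grhl2 highest, Krt5 with 1 read). The 6 endothelial markers measured of 7 summed to 0.160 to 0.283 and 0.156 to 0.298 FPKM (Emcn and Pecam1 highest, Erg with 1 read). The 8 macrophage markers summed to 17.2 to 20.7 and 15.2 to 18.5 FPKM, mostly from Cd14 (mean 13.4) and Cd68 (3.73), while Adgre1 had 2 reads. Among them Lyz2, a lysozyme gene below the 1 FPKM filter, was at 0.823, 1.05 and 1.87 FPKM alone and 0.224, 0.478 and 0.532 in co-culture (149 and 47 reads), 3.04-fold lower without overlap, a fold like that of Ereg. For every other macrophage marker the groups overlapped. Cd14 averaged 13.8 FPKM alone and 12.9 in co-culture, and Cd68 averaged 3.75 and 3.71, and neither was called. Tyrobp had 11 reads alone and 3 in co-culture, and Csf1r 16 and 12. The part of these marker levels in the results below was not tested.

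Epiregulin was the leading ligand transcript by FPKM and the member that differed most. Ereg stood at 26.5, 27.6 and 29.7 FPKM in alone replicates 1 to 3 and at 8.24, 9.04 and 9.92 FPKM in co-culture replicates 1 to 3. The groups were far apart, and the highest co-culture library was below every alone library. The means were 27.9 ± 1.63 and 9.07 ± 0.838 FPKM (SD, n = 3), which is 3.08-fold lower in co-culture, with a log2 change of −1.52 (SE 0.06) on the log2(FPKM + 1) scale. These levels rested on 4124 to 4712 reads per library alone and 1009 to 1531 in co-culture. The SD between libraries was 5.83% and 9.25% of the mean, against 1.52% and 2.76% from read counting. In RNA from whole cultures, fewer cells of a kind and less RNA per cell cannot be told apart. An lncRNA gene, Gm19610, overlaps Ereg by 319 bp in RefSeq and had 48 reads alone and 83 in co-culture, against 12992 and 3947 for Ereg.

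Neuregulin 1 and heparin-binding EGF were also lower, but by much less. Nrg1 was at 3.06, 3.56 and 3.77 FPKM in the alone libraries and at 2.51, 2.60 and 2.45 FPKM in co-culture. The lowest alone library lay above the highest co-culture library. The means of Nrg1 were 3.46 ± 0.366 and 2.52 ± 0.0751 FPKM, 1.37-fold lower. The log2 change of Nrg1 was −0.34 (SE 0.07) with 1 FPKM added before the logarithm, and −0.46 with limma-voom on reads. Hbegf was at 1.42, 1.68 and 1.78 FPKM alone and at 1.01, 1.16 and 1.12 FPKM in co-culture. Its groups did not overlap either, with means of 1.63 ± 0.184 and 1.10 ± 0.0791 FPKM, 1.48-fold lower. The log2 change of Hbegf was −0.32 (SE 0.07) with 1 FPKM added before the logarithm, and −0.56 with 0.01 FPKM added or with limma-voom on reads, since the added value shrinks low genes. Only 71 to 162 reads per library lay behind Hbegf, whose spread in co-culture (7.21% of the mean) was below the 10.5% that counting alone would give. Alone replicate 1 was the lowest alone library for all of Ereg, Nrg1 and Hbegf. These 3 were the members past the 1 FPKM mean whose groups did not overlap. Among all 10055 genes past that mean, 24.8% were lower and 21.3% higher in co-culture without overlap; nothing is read from the members' count, because this contrast chose them.

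**Figure D1:**
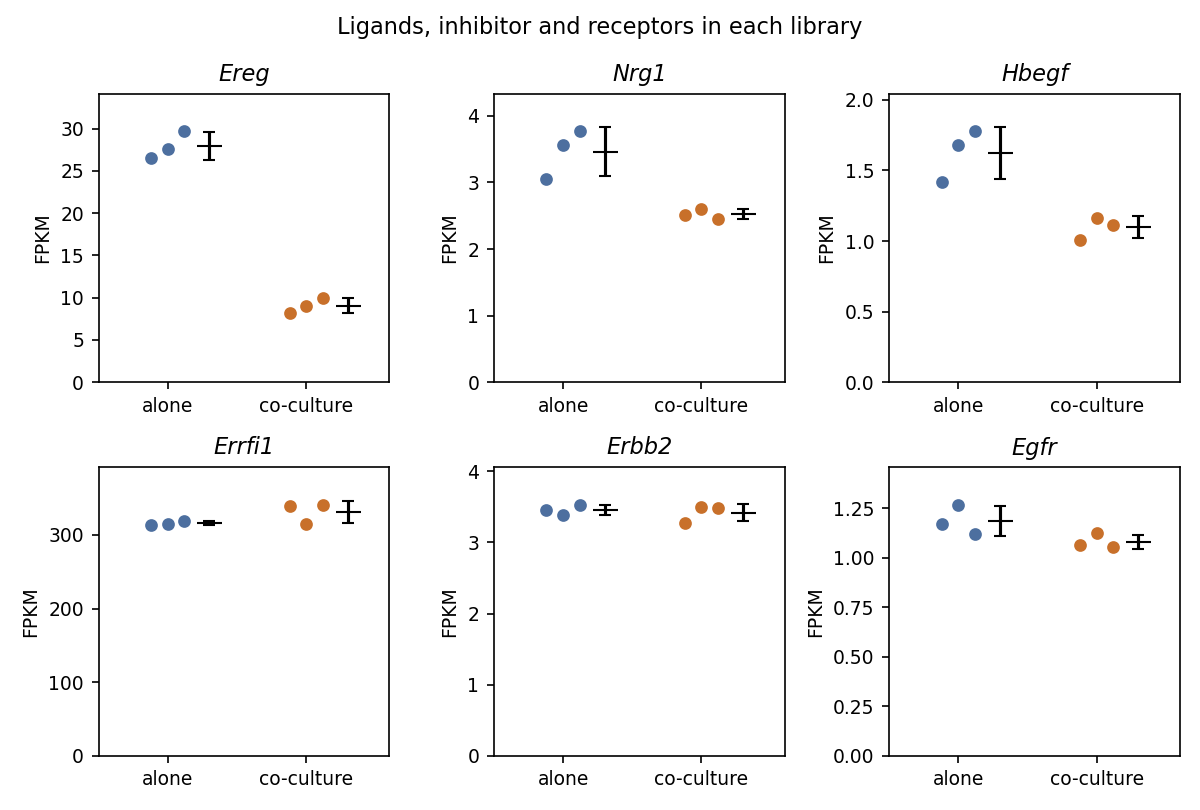
FPKM in each library (points) with the group mean and SD (bars, n = 3) for 6 genes of the EGF family and its inhibitor, each axis starting at 0. The co-culture points lie below all alone points for Ereg, Nrg1 and Hbegf, and the groups overlap for Errfi1, Erbb2 and Egfr.

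The other ligands were all below the 1 FPKM filter. Tgfa, which encodes TGF-alpha, had 0, 2 and 1 reads in the alone libraries and 1, 1 and 2 in co-culture, where 3 reads correspond to at most 0.0213 FPKM, so no difference could be seen at this depth. Egf itself was at 0.406, 0.277 and 0.396 FPKM alone and at 0.478, 0.432 and 0.513 FPKM in co-culture (195 and 238 reads). All 3 co-culture libraries were above the alone libraries for Egf, opposite to Ereg, at a level below the 1 FPKM filter, so it was not tested. Epgn (epigen) had 11 reads alone and 9 in co-culture, Nrg4 had 6 and 5, and Nrg3 had 1 and 0. Nrg2 was not analysed here.

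Summed over the 8 measured ligands, the FPKM of the family was 31.4, 33.2 and 35.7 in the alone libraries and 12.4, 13.3 and 14.1 in co-culture. Ereg made up 83.5 ± 0.749% of that sum alone and 68.4 ± 1.99% in co-culture. The share of Nrg1 was 10.3 ± 0.518% and 19.1 ± 1.48%, and that of Hbegf was 4.85 ± 0.284% and 8.29 ± 0.436%. The ratio of Ereg to Nrg1 was 7.76 to 8.66 alone and 3.28 to 4.04 in co-culture. By FPKM, Ereg was the largest part of the sum in every library, and a smaller part in each co-culture library than in any alone library.

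**Figure D2:**
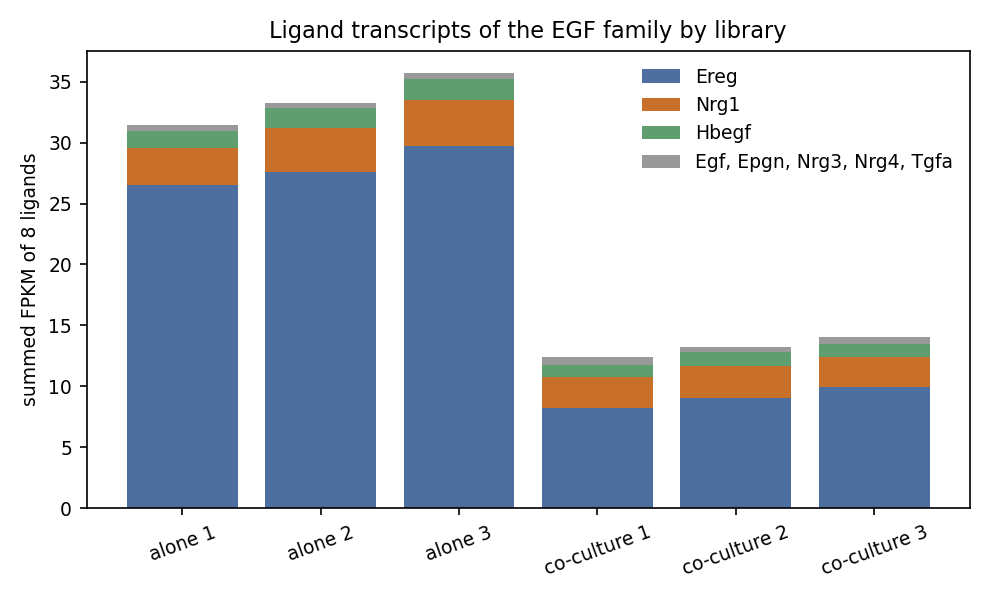
Summed FPKM of 8 EGF family ligands in each of the 6 libraries, stacked by gene from a zero baseline. Ereg fills most of each bar, and the bars stand between 31.4 and 35.7 FPKM alone and between 12.4 and 14.1 FPKM in co-culture.

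The place of Nrg1 beside Ereg depended on the gene length used. The lengths behind the FPKM, recovered from the values, were 4136 bp for Ereg and 23207 bp for Nrg1, a gene with many alternative starts and ends. The longest protein-coding transcript annotated in GENCODE M21 has 4128 bp for Ereg and 5415 bp for Nrg1, a 4.29-fold shorter length for the latter. Per kilobase of that transcript, a choice made after the data were seen, Nrg1 would stand at 14.8 ± 1.57 alone and 10.8 ± 0.322 in co-culture, and Ereg at 27.99 ± 1.63 and 9.09 ± 0.840. The ratio of Ereg to Nrg1 would then be 1.81 to 2.03 in the alone libraries and 0.768 to 0.945 in co-culture, where Nrg1 would be the higher of the pair in all 3 libraries. The share of Ereg in the summed ligands would be 62.4 ± 1.36% alone and 42.1 ± 2.51% in co-culture, and that of Nrg1 33.0 ± 1.24% and 50.2 ± 2.40%, the largest part in all 3 co-culture libraries. Reads do not say which Nrg1 transcripts were present, so both lengths are given. The fold differences between groups do not depend on this length. Annotated genes lie within Nrg1 too, of which Gm26578 had 54 reads alone and 108 in co-culture against 9031 and 6122 for Nrg1.

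**Figure D3:**
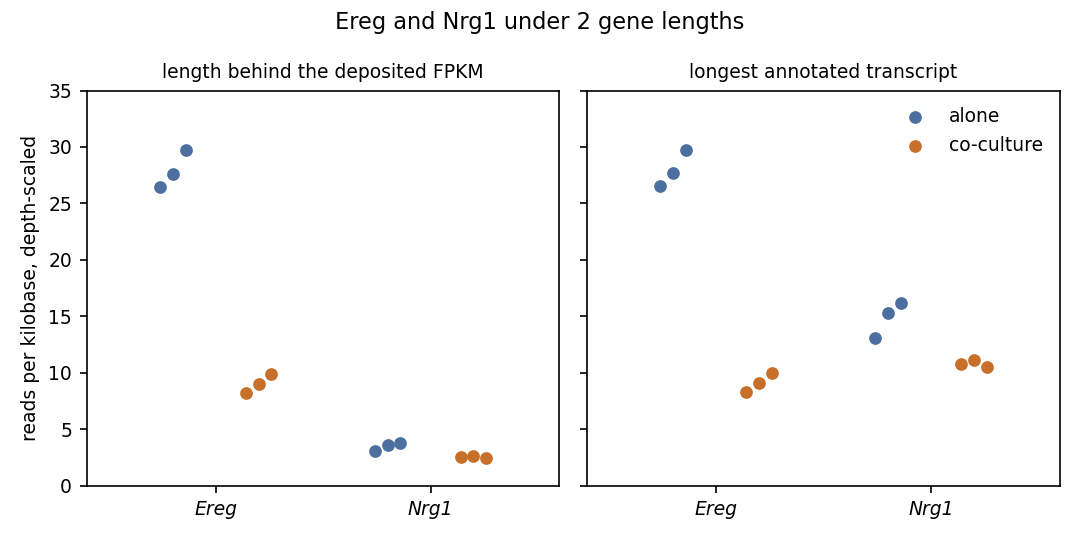
Levels of Ereg and Nrg1 in reads per kilobase, scaled to library depth, in each library, with the length behind the deposited FPKM (left) and with the longest annotated protein-coding transcript (right). On the left Ereg is above Nrg1 in both groups, and on the right the co-culture points of Nrg1 lie at 10.5 to 11.2, above the 8.26 to 9.94 of Ereg.

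The receptors were low and nearly level between the groups. Erbb2, the receptor without a ligand of its own, was at 3.46, 3.39 and 3.53 FPKM alone and at 3.28, 3.50 and 3.48 FPKM in co-culture. The groups overlapped, and the log2 change of −0.01 (SE 0.05) turned to 0.01 without co-culture replicate 1. Egfr, the receptor of epiregulin and heparin-binding EGF, was at 1.17, 1.27 and 1.12 FPKM alone and at 1.06, 1.12 and 1.05 FPKM in co-culture. One co-culture library, replicate 2, reached into the alone range, and the log2 change was −0.07 (SE 0.06), or −0.14 with limma-voom on reads. Erbb3, the neuregulin receptor, had 1, 0 and 1 reads alone and 0, 1 and 1 in co-culture, and Erbb4 had 1 read in all 6 libraries. For Erbb3, 3 reads correspond to at most 0.0169 FPKM. Both receptors that bind neuregulins were therefore at or under the floor of 3 reads in every library, while Nrg1 had 1724 to 3356 reads. With the lengths behind the FPKM, Erbb2 was 2.67 to 3.31 times the level of Egfr across the 6 libraries. The summed receptor level was 4.65 ± 0.0167 FPKM alone and 4.50 ± 0.147 in co-culture. Per kilobase of the longest annotated transcript, Egfr would stand at 1.49 alone and 1.36 in co-culture. Erbb2 would stand at 3.45 and 3.41, so the ratio of Erbb2 to Egfr would be lower.

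Errfi1 encodes MIG6, a cytoplasmic protein that binds the kinase domain of ErbB receptors and inhibits them. It was by far the highest member, at 314, 315 and 319 FPKM alone and at 339, 315 and 341 FPKM in co-culture. Co-culture replicates 1 and 3 were above the alone libraries and replicate 2 was among them. The means were 316 ± 2.65 and 332 ± 14.7 FPKM, with a log2 change of 0.07 (SE 0.04). Only 165 of the 21436 genes had a higher mean than Errfi1. It stood at 89.9 to 103 times the FPKM of Erbb2 over all libraries. Its ratio to Ereg was 10.7 to 11.9 alone and 34.4 to 41.1 in co-culture.

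In order of FPKM, with the deposited lengths, Errfi1 and Ereg led in both groups. In the alone libraries Nrg1 and Erbb2 followed at levels that did not differ beyond their spread (3.46 ± 0.366 and 3.46 ± 0.0707 FPKM), then Hbegf and Egfr. In co-culture Erbb2 (3.42 ± 0.124 FPKM) was above Nrg1 (2.52 ± 0.0751 FPKM), and Hbegf and Egfr (1.10 ± 0.0791 and 1.08 ± 0.0372 FPKM) did not differ beyond their spread. Tgfa and Erbb3 came last in both groups and could not be ordered. With the longest transcript the co-culture order turned to Nrg1 (10.8), Ereg (9.09), Erbb2 (3.41), Egfr (1.36) and Hbegf (1.10) below Errfi1, and Nrg1 was above Erbb2 in the alone libraries as well (14.8 and 3.45).

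Upstream sequences are shown for Errfi1, the most abundant member, and for the low receptors, with Areg for comparison. RefSeq (GRCm38.p6) gave windows for Errfi1, Areg, Btc, Tgfa, Egfr and Erbb2, and those of Ereg, Hbegf, Nrg1 and Erbb3 were not used here. The 250 bases before each start were searched on both strands for the full cyclic AMP response element TGACGTCA, its half-site TGACG (which the full element contains), the AP-1 element TGANTCA and the TATA box TATAAA. The last 70 bases before the start are shown 5′ to 3′ on the plus strand, which is the coding strand of all 4 genes. Capitals mark the full cyclic AMP response element and the TATA box. They come from chr4:150855000-150855069 for Errfi1 (the downstream of its 2 annotated starts), chr5:91139529-91139598 for Areg, chr11:98412414-98412483 for Erbb2 and chr11:16752133-16752202 for Egfr.
Errfi1: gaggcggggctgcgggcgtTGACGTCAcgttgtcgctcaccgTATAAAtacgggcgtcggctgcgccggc
Areg: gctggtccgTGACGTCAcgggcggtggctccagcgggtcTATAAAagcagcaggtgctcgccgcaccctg
Erbb2: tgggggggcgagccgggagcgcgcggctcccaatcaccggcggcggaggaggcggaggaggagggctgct
Egfr: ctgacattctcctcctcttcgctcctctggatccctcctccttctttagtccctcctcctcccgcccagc

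Errfi1 carried the full element at 51 to 44 bases before that start and a TATA box at 28 to 23 bases, and Areg, which encodes amphiregulin, carried them at 61 to 54 and 31 to 26 bases. Of all 32851 windows of the same 250 bases, 1.55% held the full element, 12.4% a TATA box and 0.119% both. Neither was found in the windows of Btc, Tgfa, Egfr and Erbb2, or before the upstream start of Errfi1. Half-sites, present in 17.8% of all windows, stood alone in Btc and Erbb2. The AP-1 element, present in 6.75% of all windows, was not found in these letters for any of the 7 member windows. These matches are a description of the sequence, and binding was not measured.

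Ereg lies on mouse chromosome 5 from 91074617 to 91093649 (mm10), between Epgn and Areg, with Btc beyond. Within 500 kb of the interval from Epgn to Btc, 18 annotated genes had a row and 5 besides Ereg were tested. Cxcl1 and Cxcl5, which encode neutrophil chemokines, were both called lower (limma with Benjamini-Hochberg adjustment). Cxcl1, 181 kb away, averaged 384 ± 19.9 FPKM alone against 184 ± 9.30 in co-culture (log2 change −1.05, SE 0.05, adjusted p = 3.48e-07). Cxcl5, 313 kb away, was at 488 ± 11.2 and 393 ± 3.55 FPKM (log2 change −0.31, SE 0.03, adjusted p = 1.12e-04). Mthfd2l, 53.2 kb away and the closest of these, was at 3.94 ± 0.174 and 3.93 ± 0.516 FPKM (adjusted p = 0.949). Ppbp and Parm1 were not called (adjusted p = 0.657 and 0.159), although Parm1 was called higher without alone replicate 3 (adjusted p = 0.0306). Epgn, 39.4 kb from Ereg, was near 0 in both groups.

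Profiles most like that of Ereg were those of Stc1, Fos and Ier3. Likeness was the root-mean-square difference over the 6 libraries of log2(FPKM + 1), after subtracting the alone mean of each gene. It was 0.132 for Stc1 (stanniocalcin 1), 0.134 for Fos and 0.161 for Ier3. Stc1 averaged 21.7 ± 2.36 FPKM alone against 6.58 ± 0.957 in co-culture, and Fos at 18.9 ± 0.381 and 6.40 ± 1.64 FPKM. For Hbegf they were Ubqln4, Mbtps2 and Zxdb (differences of 0.0249 to 0.0293), each with a log2 change of −0.32 to −0.30. With 0.01 FPKM added, the log2 change was −0.56 for Hbegf, −0.36 for Ubqln4, −0.34 for Mbtps2 and −0.52 for Zxdb. The likeness of Ubqln4 and Mbtps2 to Hbegf thus depended on the 1 FPKM added. The call of Ubqln4 was lost without the filter on low values (adjusted p = 0.0534). Likeness over 6 libraries in 2 groups mostly restates the group difference.

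Beyond the family, limma called 13.9% of the 10055 tested genes higher and 17.9% lower in co-culture. Without co-culture replicate 3 the 1402 genes called higher numbered 925. The median log2 change of all tested genes was −0.0037 and the median size 0.10. The pathway lists below were chosen with earlier results of these data known, so their counts and p-values are a description. Of 10 tested genes that release the ligands, 2 (20%) were called lower, 1 (10%) higher and 7 not, shares near those of all tested genes (median log2 change −0.04). Adam17, the main protease that frees epiregulin, amphiregulin and heparin-binding EGF, fell from 26.5 ± 0.710 to 22.8 ± 0.195 FPKM (log2 change −0.21, SE 0.04, adjusted p = 0.0021). Adam15 fell from 38.6 ± 0.684 to 35.1 ± 0.908 FPKM (adjusted p = 0.0188), a call lost without alone replicate 2 (adjusted p = 0.0683), co-culture replicate 1 (0.0734) or co-culture replicate 3 (0.0706). Bace1, a protease that cleaves neuregulin 1, rose from 15.6 ± 1.01 to 17.4 ± 0.0982 FPKM (adjusted p = 0.0377), a call lost without any 1 library except alone replicate 2 (adjusted p from 0.0542 to 0.0982). The most abundant, Adam9, was at 99.3 ± 1.54 and 95.1 ± 2.05 FPKM (adjusted p = 0.182).

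Of 23 tested adaptors and brakes of the receptors, 7 (30.4%) were called lower and 1 (4.35%) higher, against 17.9% and 13.9% of all tested genes (median log2 change −0.04). Rnf41 encodes a ubiquitin ligase for ErbB3 and fell from 6.06 ± 0.0540 to 4.48 ± 0.245 FPKM (log2 change −0.36, SE 0.05, adjusted p = 5.57e-04). Cblb, a ubiquitin ligase of the CBL family that acts on EGF receptors, fell from 6.40 ± 0.197 to 4.77 ± 0.287 FPKM (adjusted p = 7.94e-04), and the RAS exchange factor gene Sos2 from 4.46 ± 0.231 to 3.47 ± 0.226 FPKM (adjusted p = 0.0045). Tns3, which encodes the focal-adhesion protein tensin 3, rose from 25.97 ± 1.77 to 33.5 ± 0.260 FPKM (log2 change 0.36, SE 0.05, adjusted p = 3.94e-04). Shc1, the most abundant adaptor, was at 40.4 ± 0.539 and 42.8 ± 2.39 FPKM (adjusted p = 0.182). The 7 lower calls numbered 3 without alone replicate 2 or 3 or without co-culture replicate 1 or 3. Lower calls among all 10055 tested genes then numbered 1413, 1455, 1374 and 1399, against 1799 with all libraries. With those libraries left out, the share of lower calls among adaptors and brakes was not above that of all tested genes. The single higher call became 2 without alone replicate 2 or co-culture replicate 1.

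In the RAS to ERK cascade 6 of 18 tested genes (33.3%) were called lower and 0 higher by limma. The shares of all tested genes were 17.9% and 13.9%. At an unadjusted p below 0.05 the counts of the list were 7 and 0. The shares of all tested genes were not counted at that threshold and cannot be smaller than the adjusted ones. Nothing is therefore read from these unadjusted counts. With limma-voom on reads 8 of the list were lower and 0 higher, against 2032 and 1357 of the 10055 tested genes. Both MEK genes fell, Map2k1 from 27.6 ± 1.57 to 23.3 ± 0.633 FPKM (log2 change −0.24, SE 0.05, adjusted p = 0.0033) and Map2k2 from 18.5 ± 1.27 to 15.5 ± 0.613 FPKM (adjusted p = 0.0070). The call of Map2k2 was lost without the filter on low values (adjusted p = 0.0520). The scaffold gene Shoc2 (log2 change −0.25, adjusted p = 8.57e-04) and the ERK-activated kinase gene Rps6ka2 (log2 change −0.27, adjusted p = 0.0034) fell too. Pebp1, which encodes a RAF inhibitor and was the most abundant, was at 148 ± 4.19 and 149 ± 4.60 FPKM (adjusted p = 0.842). The changes of the 18 ran from −0.27 to 0.09 with a median of −0.08. Their median size was 0.090, not above the 0.101 of all tested genes.

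**Figure D4:**
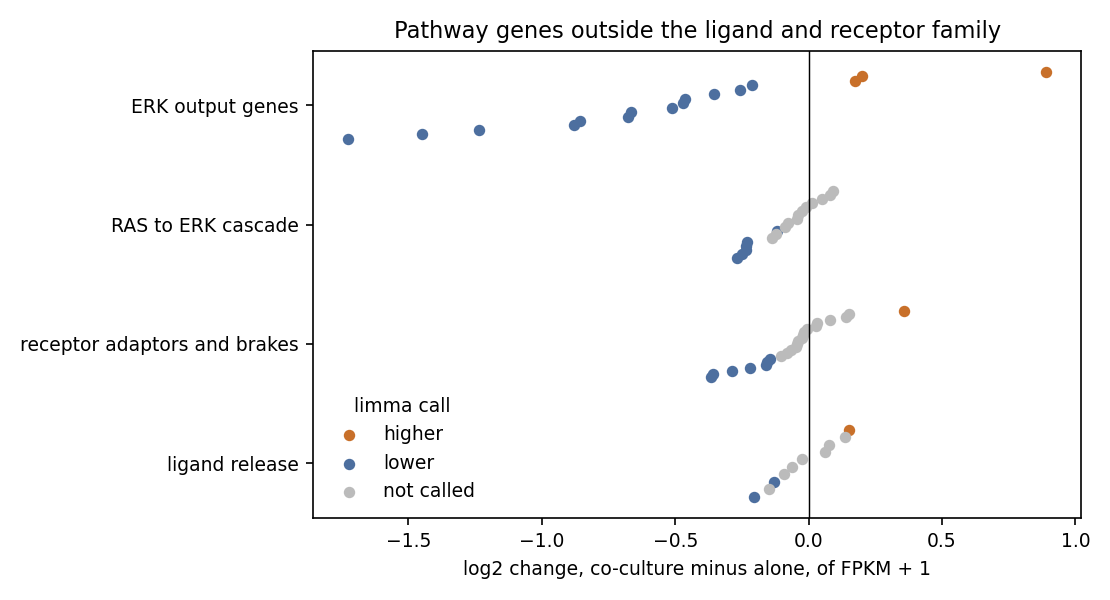
Log2 change of FPKM + 1, co-culture minus alone, for each tested gene (points) of 4 pathway lists, coloured by limma call. Release, adaptor and cascade genes lie within −0.36 to 0.36, while the ERK output genes spread from −1.73 to 0.89.

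Transcripts known to follow ERK activity differed far more. All 16 tested genes of that list were called, 13 (81.25%) lower and 3 (18.75%) higher, with a median log2 change of −0.49. Of all tested genes 17.9% were called lower and 13.9% higher, so the share of higher calls was near that of all genes. The ERK output list, like the other pathway lists, was chosen with earlier results of these data known. The counts and p-values of all these lists are therefore a description. Ier3, Fos and Dusp5 had already been seen to differ in these libraries, so their calls support nothing. Of the other 13, 11 were lower and 2 higher, with a median of −0.47. Phlda1 fell from 63.9 ± 0.748 to 26.7 ± 2.53 FPKM (log2 change −1.24, SE 0.06, adjusted p = 4.19e-07). Spry1, which encodes a sprouty feedback inhibitor of receptor tyrosine kinase signalling, fell from 28.1 ± 0.577 to 14.8 ± 0.989 FPKM (log2 change −0.88, SE 0.05, adjusted p = 1.25e-06). Ier3 fell from 67.97 ± 1.45 to 19.9 ± 2.38 FPKM (adjusted p = 7.01e-08). Fosl1, the most abundant of the list and an AP-1 subunit gene, fell from 179 ± 5.38 to 112 ± 9.47 FPKM (log2 change −0.67, SE 0.06, adjusted p = 1.45e-05).

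The 3 that rose were Dusp5, Spred3 and Ccnd1. Dusp5 encodes a nuclear ERK phosphatase and averaged 5.76 ± 0.343 FPKM alone against 11.5 ± 0.343 in co-culture (log2 change 0.89, SE 0.05, adjusted p = 1.81e-06). The remaining lower members were Dusp6, Dusp4, Spry2, Spry4, Spred1, Etv5, Epha2, Egr1 and Fos. The list thus held feedback inhibitors in both directions. Epha4, Etv4 and Spred2 were below the filter and not tested. The 13 lower calls numbered 13 without each library in turn, while the 3 higher calls numbered 2 without alone replicate 2 or 3, without replicate 1 or 3 of the co-culture, and at an adjusted p below 0.01. ERK activity was not measured, and several genes of the list also respond to other signals, so their part in the difference of Ereg was not tested.

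**Figure D5:**
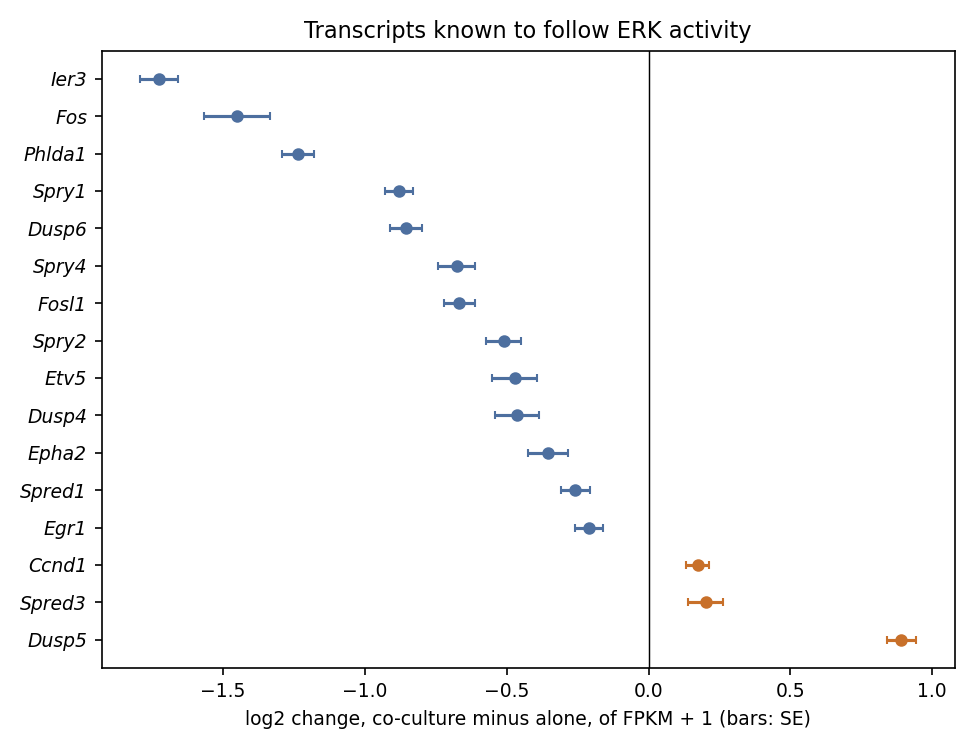
Log2 change of FPKM + 1 with its SE for the 16 tested ERK output genes, co-culture minus alone. The 13 lower genes run from Ier3 (−1.73) to Egr1 (−0.21), and Ccnd1, Spred3 and Dusp5 lie above 0.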

How the data were processed

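The authors deposited 1 table with an FPKM value per gene and library for 3 alone and 3 co-culture libraries. Per the submitters' processing notes, fastp, HISAT2, HTSeq and mm10 were used; their versions, the annotation and the strand setting were not stated there, so genes that overlap are uncertain. Whole reads were recovered for all 21436 genes from the ratios between libraries (tolerance 1e-06), scaled with the 1545 bp of COX1. Floors of 3 reads cover counting error only. Genes averaging 1 FPKM or more (10055) were tested on log2(FPKM + 1) with limma 3.58.1 (R 4.3.3, eBayes with a trend), called at a Benjamini-Hochberg adjusted p below 0.05. The code was tested on simulated data. Members and lists were chosen with earlier results of these data known. Named were all members and other family genes, up to 4 called genes with the smallest p and the most abundant gene of each pathway list, 3 genes most like Ereg and Hbegf, and neighbours of Ereg. Library pairs of 1 group differed by a mean chi-square of 3.44 to 11.9 per gene, so none were copies. Alternatives were other pseudocounts, filters, scalings and thresholds, limma-voom, a replicate block and each library left out. Coordinates are RefSeq's on GRCm38.p6, the assembly of mm10. One list of marker genes is not reported here.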

Additional observations from a re-analysis of the deposited data

How the results depend on the processing

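Of 86 member values under the alternatives, 75 moved by less than the spread between libraries, 11 moved by more and 0 reversed among members whose groups did not overlap; of 458 values of 29 other named genes, 15 lost and 1 gained a call and 0 reversed. At an adjusted p below 0.01, 635 genes were higher and 1073 lower, 0 ligand release genes were higher and 1 lower, and 3 adaptors were lower. Ligand release had 0 higher calls without a filter, with TPM scaling or without a trend. The adaptors had 4 lower calls without a filter, and 2 higher calls with a filter at 5 FPKM, median-ratio scaling or no trend and 3 with limma-voom. Leaving out 1 library gave 925 to 1419 higher and 1374 to 1753 lower genes, 0 to 1 higher and 1 to 3 lower for ligand release, and 1 to 2 higher and 3 to 7 lower for the adaptors. Same-numbered libraries did not deviate together (correlations −0.04, 0.11 and −0.08), and not every library correlated best with its own number. With a replicate block 1258 genes were higher and 1640 lower, and the calls of the ERK output list stayed at 3 and 13. Depth limits Tgfa, Erbb3, Erbb4, Epgn, Nrg3 and Nrg4, and the causes of lost calls were not tested.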
